A study of Mus musculus with 72 samples.

Results

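The genes described here are Hif1a, which encodes the oxygen-regulated subunit of hypoxia-inducible factor 1, and 9 genes of glucose uptake, glycolysis, lactate formation and vessel growth that this factor is known to activate: Slc2a1, Hk1, Pfkl, Aldoa, Pgk1, Ldha, Pdk1, Pgam1 and Vegfa. Each gene was read from probe sets that list its symbol alone, taking the probe set with the highest mean. Such a probe set was found for 9 of the 10 genes, and these 9 are among the 13308 genes tested of 22180 genes with a probe set of 1 symbol. For Aldoa the arrays hold a probe set shared with Aldoart1, so that gene enters no test. The members were chosen by name, with earlier results of these data known. They are often described as held low by SIRT6, and no gene is called so here, since none passed the test of a difference between the SIRT6 labels.

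Livers were taken from mice under 12 h of light and 12 h of darkness at 0, 4, 8, 12, 16 and 20 h after lights on (zeitgeber time, ZT). The SIRT6 cohort compared wild type (WT) with SIRT6 knockout (KO) livers, both on a background given as 129 mixed. The SIRT1 cohort held mice labelled WT and SIRT1 KO of strain C57BL/6. The protocols call both knockouts liver-specific, so that other cells of the animal keep the gene. The labels name no Cre line, no age and no deleted exons. This made 24 groups with 3 arrays in each, 72 in all. The labels do not say that replicates are separate animals, so p-values here speak of the spread of these samples only, which may be technical.

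Hypoxia-inducible factor 1 is a dimer of HIF1A and ARNT. With oxygen present, prolyl hydroxylases mark HIF1A for the VHL ubiquitin ligase. Without it the dimer binds DNA at a short core sequence and raises genes that move a cell from respiration to glycolysis. SIRT6, a chromatin deacetylase, has been described as a co-repressor of HIF1A at glycolytic genes, and SIRT1 as a deacetylase of HIF1A itself. In the liver, glucose use and feeding follow the light cycle.

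The core sequence of HIF sites is ACGTG or GCGTG, and the clock factors CLOCK and BMAL1 bind CACGTG, which contains ACGTG on both strands. These motifs were searched on both strands of RefSeq promoters (GRCm38.p6, 250 bases before to 50 after a start), for which 10 of 10 members matched with 16 windows. ACGTG was in 9 of the 16 member windows and in 19.6% of all 32851 windows. Either core was in 12 of the 16 and in 43.8% of all windows. CACGTG was in 2 of the 16 windows, those of Hif1a and Ldha, and in 7.15% of all windows. The stretches below lie before the start and show the matches, in capitals on the strand of the gene, for 6 members: Hif1a and Ldha hold CACGTG, Slc2a1 and Pgk1 hold ACGTG, and Pfkl and Vegfa are the members that passed a test of level. CACGC and CACGT in capitals are a core read from the other strand.
Hif1a, chr12:73907720-73907813, plus strand: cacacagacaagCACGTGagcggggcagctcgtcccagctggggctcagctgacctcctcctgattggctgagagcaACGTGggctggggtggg
Slc2a1, chr4:119108672-119108725, plus strand: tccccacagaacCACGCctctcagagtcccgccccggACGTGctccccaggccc
Pfkl, chr10:78009890-78009918, minus strand: atttgtagactgGCGTGcgctccgccttt
Pgk1, chrX:106186938-106186985, plus strand: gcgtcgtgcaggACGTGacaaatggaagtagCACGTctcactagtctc
Ldha, chr7:46845647-46845786, plus strand: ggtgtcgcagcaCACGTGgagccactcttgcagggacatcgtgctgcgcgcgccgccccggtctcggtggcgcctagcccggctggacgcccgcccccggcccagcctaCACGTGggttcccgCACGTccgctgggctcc
Vegfa, chr17:46025358-46025393, minus strand: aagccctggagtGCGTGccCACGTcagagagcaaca
The stretch of Pfkl holds 1 match and that of Ldha 5, a CACGTG being counted on each strand. A match describes these letters alone, and binding was not measured.

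Levels are log2(intensity + 16), a scale that understates changes of dim genes, and they are compared within a gene and a cohort only. The median intensity of an array ran from 43.9 to 52.9 in the SIRT6 cohort and from 44.4 to 53.8 in the SIRT1 cohort. Replicates differed more in the SIRT6 cohort, where 1 component took up 52.6% of the within-group variance, against 17.99% among SIRT1 arrays. One array, WT ZT12 replicate 1 of the SIRT6 cohort, stood apart from its group, with correlations of 0.904 and 0.920. The Sirt6 probe set was higher, not lower, in the livers labelled SIRT6 KO, by 0.57 ± 0.05 (SE, adjusted p = 8.9e-09). That of Sirt1 differed by 0.00 ± 0.04 (SE) between the labels of the SIRT1 cohort. The labels do not place these probes inside or outside the deletion, so neither label is checked by them, and every direction in the SIRT6 cohort rests on the label. The time labels were borne out by the clock genes: 11 of 11 tested clock genes were rhythmic in all 4 sets of cohort and genotype, and Arntl peaked between ZT21.2 and ZT22.0. Other clock genes had peaks that lay further apart. In the SIRT6 cohort Nr1d1 peaked at ZT4.6 in WT and ZT6.2 in KO-labelled livers, and Dbp at ZT8.3 and ZT8.6. In the SIRT1 cohort these were ZT7.0 and ZT6.3 for Nr1d1 and ZT10.2 and ZT9.5 for Dbp. A shift in peak time between the cohorts was not tested. All 12 hepatocyte markers were above the filter on dim genes, as were all 12 Kupffer cell markers, while all 8 neutrophil markers were below it.

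Averaged over the day, the livers labelled SIRT6 KO showed no member past the test in either direction. All 9 members had the slightly lower mean, from −0.08 for Vegfa to −0.01 for Ldha (log2), with a median of −0.03. The median of all genes tested was 0.00, and 51.7% of them were higher in the mean under the KO label. The test called 0 of 9 members, where it called 6.61% of all genes, 3.39% higher and 3.22% lower (limma, adjusted p under 0.05). With centred array medians it again called 0 of 9, and 36.2% of the calls over all genes were higher, against 51.2% as deposited. At an unadjusted p under 0.05 the count was again 0 of 9, against 19.3% of all genes, and the lowest adjusted p was 0.53, for Vegfa. With array weights Ldha and Pdk1 turned to 0.01 and 0.02, leaving 7 members lower. Without the array that stood apart all 9 stayed lower, from −0.10 to −0.01, and 0 passed. In whole liver, a change in the share of a cell type and a change in the RNA per cell cannot be told apart.

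The intervals say how large a rise could have been missed. For Hif1a the 95% interval of the difference reached 0.04, for Pgk1 0.02, for Pfkl 0.03 and for Vegfa 0.04, all under a rise of 1.03-fold. For Ldha it reached 0.09, or 1.06-fold, and for Slc2a1 0.10, or 1.07-fold. For the Pgam1 probe set used it reached 0.04, or 1.03-fold. That bound does not hold for the other Pgam1 probe set, described below, which differed by 0.16 ± 0.06 (SE) and for which no interval was computed. The spread between arrays was larger for Hk1 and Pdk1, and their intervals reached 1.14-fold and 1.26-fold. A missed test does not show that the levels are equal.

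**Figure D1:**
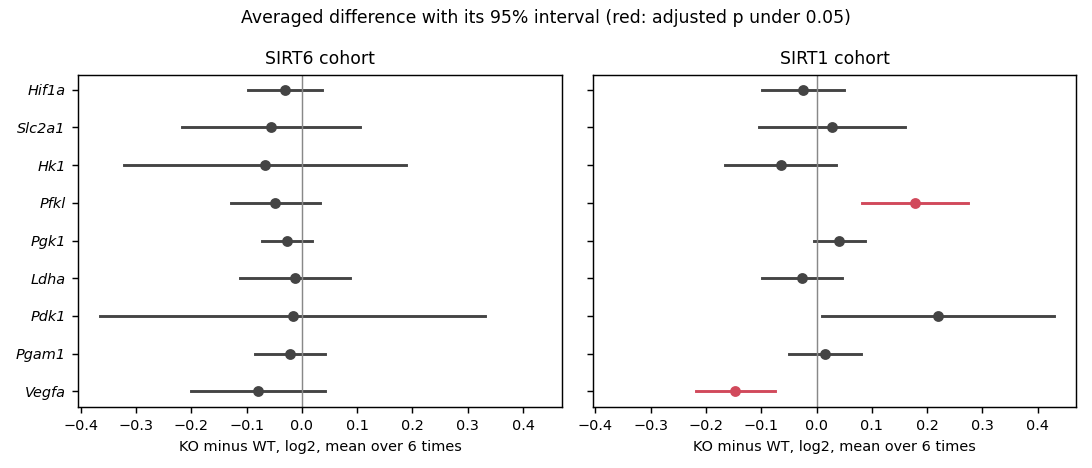
KO minus WT difference averaged over the 6 times (log2) for each of 9 genes, as a point with its 95% interval, in the SIRT6 cohort (left) and the SIRT1 cohort (right), from 36 arrays each. In the SIRT6 cohort all 9 points lie left of 0 with intervals that include it, and in the SIRT1 cohort Pfkl (0.18) and Vegfa (−0.15), in red, passed an adjusted p of 0.05.

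Hif1a itself ran from 9.67 through a median of 9.88 to 10.07 in the 18 WT arrays of the SIRT6 cohort, and from 9.68 through 9.83 to 10.08 in the 18 KO-labelled arrays. The ranges nearly coincided, and the difference was −0.03 ± 0.03 (SE, adjusted p = 0.70). In the SIRT1 cohort it ran from 9.61 through 9.88 to 10.06 in WT and from 9.57 through 9.81 to 10.05 in KO-labelled arrays, again over nearly the same range. The difference there was −0.03 ± 0.04 (SE, adjusted p = 0.75), and it turned to 0.04 with centred array medians.

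At single times Hif1a was lowest relative to WT at ZT4. The WT arrays of the SIRT6 cohort then read 9.97, 9.86 and 9.96 and the KO-labelled arrays 9.76, 9.68 and 9.73. The KO-labelled arrays all lay below the WT arrays, by 0.20 ± 0.08 (SE) in the means, yet the adjusted p was 0.47. At ZT20 the order was turned in the means, with 9.78, 9.78 and 9.67 in WT and 9.98, 9.75 and 9.87 in KO-labelled arrays, and the groups overlapped. Across all members and times of this cohort 24 differences were positive and 30 negative, and 0 of 9 members passed at any time, where 0.473% of genes did. At an unadjusted p under 0.05 there were 2 of 54, from 2 of 9 members (Hif1a and Pgk1, both at ZT4), where 32.7% of genes had at least 1 such time. No member went 1 way at all 6 times, as 11.6% of genes did. The arrays of the 2 labels did not overlap in 5 of 54 cases, against 12.9% over all genes and times, and in each of these the KO-labelled arrays were lower: Hif1a, Pgk1 and Pgam1 at ZT4 and Pfkl at ZT0 and ZT8. With array weights Vegfa passed at ZT0, at −0.41 (adjusted p = 0.045), where 2532 of 13308 genes passed at some time in place of 63.

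**Figure D2:**
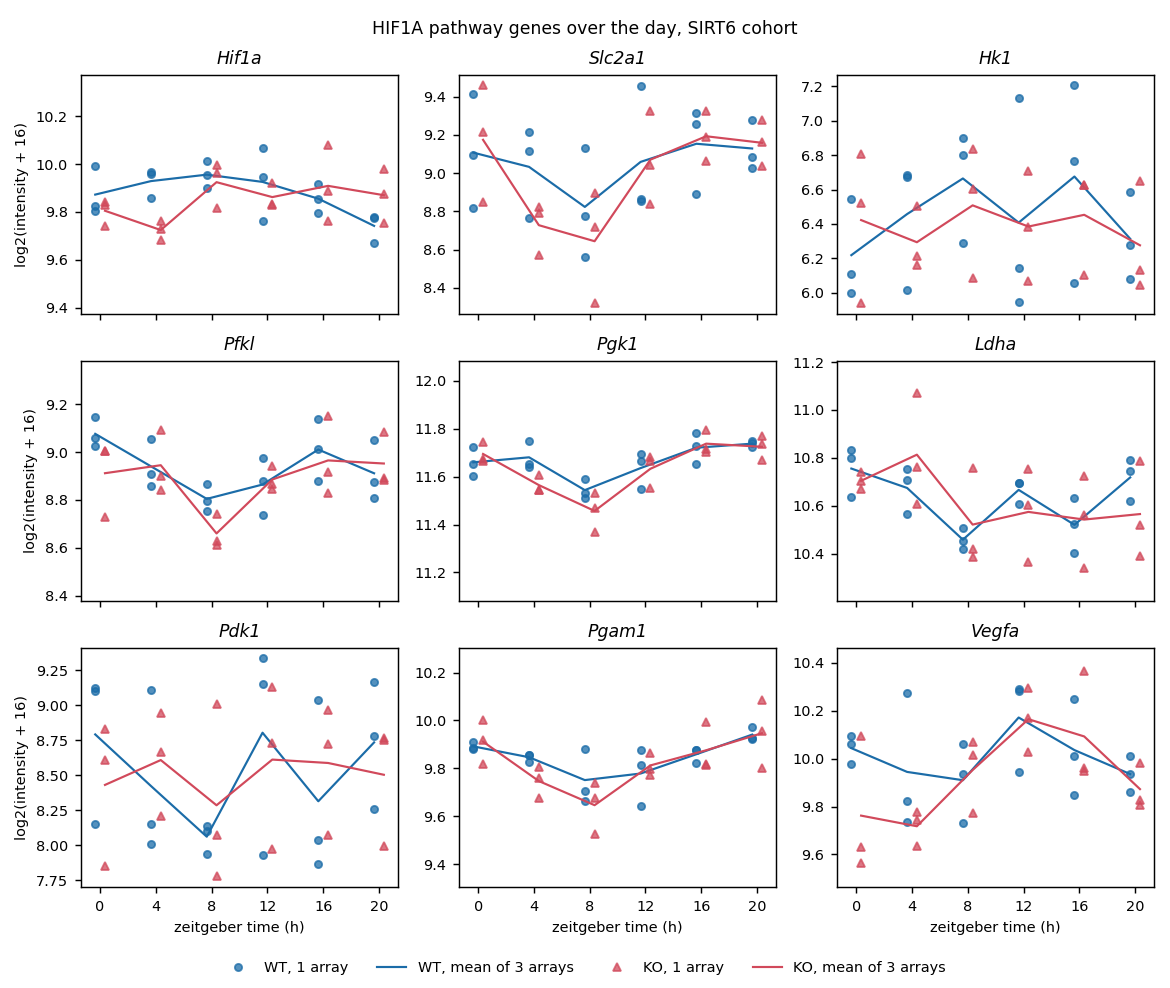
Level (log2 of intensity + 16) of 9 genes against zeitgeber time (h) in the SIRT6 cohort, with 1 point per array (WT circles, KO-labelled triangles) and lines through the means of 3 arrays; each panel has its own range. The labels overlap at most times, Hif1a at ZT4 being one of 5 cases where they do not, and the arrays of Hk1 and Pdk1 spread most.

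The glucose transporter gene Slc2a1, which encodes GLUT1, ran from 8.56 through 9.09 to 9.46 in WT and from 8.32 through 9.04 to 9.46 in KO-labelled arrays of the SIRT6 cohort. The difference of −0.06 ± 0.08 (SE, adjusted p = 0.80) was small beside these ranges, and 8 of 18 KO-labelled arrays lay above the WT mean of their time. Hk1, a hexokinase that phosphorylates glucose in most tissues, where hepatocytes use glucokinase, ran from 5.95 through 6.42 to 7.20 in WT and from 5.94 through 6.44 to 6.83 in KO-labelled arrays. Its difference was −0.07 ± 0.12 (SE, adjusted p = 0.87), and its lowest arrays were near the filter on dim genes at 6.00. Pfkl, the liver form of phosphofructokinase, ran from 8.74 through 8.89 to 9.15 in WT and from 8.61 through 8.89 to 9.15 in KO-labelled arrays. The medians coincided, with a difference in means of −0.05 ± 0.04 (SE, adjusted p = 0.59).

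Pgk1, the kinase of the first ATP-forming step, had the narrowest spread within groups, with an SD of 0.06. It ran from 11.51 through 11.66 to 11.78 in WT and from 11.37 through 11.67 to 11.80 in KO-labelled arrays of the SIRT6 cohort, a difference of −0.03 ± 0.02 (SE, adjusted p = 0.57). Ldha, which turns pyruvate into lactate, ran from 10.40 through 10.63 to 10.83 in WT and from 10.34 through 10.64 to 11.07 in KO-labelled arrays. Its difference was −0.01 ± 0.05 (SE, adjusted p = 0.95), and the highest value came from a single KO-labelled array at ZT4.

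Pdk1, the kinase that shuts pyruvate out of the mitochondrial dehydrogenase, ran from 7.87 through 8.20 to 9.33 in WT and from 7.78 through 8.70 to 9.13 in KO-labelled arrays of the SIRT6 cohort. Its median was higher under the KO label and its mean lower, with a difference of −0.02 ± 0.17 (SE, adjusted p = 0.98). Leaving out single arrays moved that difference between −0.09 and 0.04. Vegfa, the vascular growth factor, ran from 9.73 through 9.99 to 10.29 in WT and from 9.56 through 9.96 to 10.37 in KO-labelled arrays. Its difference of −0.08 ± 0.06 (SE, adjusted p = 0.53) was the largest in size among the 9 probe sets used.

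Pgam1, a phosphoglycerate mutase, ran from 9.64 through 9.88 to 9.97 in WT and from 9.52 through 9.81 to 10.09 in KO-labelled arrays, a difference of −0.02 ± 0.03 (SE, adjusted p = 0.81). The probe set behind these values (17404152) sits among 18 of 18 named neighbours from chromosome 3 in the array's order, while the gene lies on chromosome 19. The other Pgam1 probe set (17359466), which sits among 17 of 17 neighbours from chromosome 19, was dimmer and had the higher mean under both knockout labels. It differed by 0.16 ± 0.06 (SE, adjusted p = 0.13) in the SIRT6 cohort and by 0.17 ± 0.07 (SE, adjusted p = 0.17) in the SIRT1 cohort. The direction of Pgam1 in the SIRT6 cohort therefore turns with the probe set, and neither value passed.

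In the livers labelled SIRT1 KO, Pfkl was higher and Vegfa lower than in WT. These were 2 of 9 members, where 2.27% of all genes were called, 1.06% higher and 1.21% lower. Of the 9 members 5 had the higher mean (49.1% of genes did), with a median of 0.02 against 0.00 for all genes. Pfkl ran from 8.42 through 8.83 to 9.09 in WT and from 8.73 through 8.996 to 9.29 in KO-labelled arrays. The lowest arrays were WT and the highest KO-labelled, with overlap between.

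The difference in Pfkl was 0.18 ± 0.05 (SE), or 1.13-fold (limma adjusted p = 0.039), with the higher mean at 6 of 6 times and 15 of 18 KO-labelled arrays above the WT mean of their time. It was largest at ZT12, where WT read 8.42, 8.77 and 8.87 and KO-labelled arrays 9.03, 9.23 and 8.997, without overlap. The call ended after quantile normalization (0.16, adjusted p = 0.056), without the filter (adjusted p = 0.057), and for 17 of 36 arrays when left out singly, with adjusted p from 0.024 to 0.079. These arrays were, in WT, replicate 3 at ZT0 and ZT4, replicates 1 and 3 at ZT8, replicate 1 at ZT12 and ZT16 and replicate 2 at ZT20, and, under the KO label, replicate 3 at ZT0, replicates 1 and 3 at ZT4, replicates 2 and 3 at ZT8, ZT16 and ZT20 and replicate 2 at ZT12.

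Vegfa ran from 10.11 through 10.39 to 10.52 in the WT and from 9.85 through 10.21 to 10.47 in the KO-labelled arrays of the SIRT1 cohort. The difference was −0.15 ± 0.03 (SE), or 0.903-fold (limma adjusted p = 0.024), with the lower mean at 6 of 6 times and 15 of 18 KO-labelled arrays below the WT mean of their time. It was largest around the end of the dark phase. At ZT0 the WT arrays read 10.30, 10.30 and 10.16 and the KO-labelled arrays 10.01, 9.85 and 10.02. At ZT20 they read 10.44, 10.41 and 10.38 against 10.12, 10.03 and 10.22, and at neither time did the labels overlap. At ZT12 the difference was −0.03 and the arrays were mixed. The call held for each array left out singly, with adjusted p from 0.014 to 0.043, and ended with centred array medians (−0.09, adjusted p = 0.12). With that scaling the calls were Pfkl (0.24, adjusted p = 0.0075) and Pgk1 (0.10, adjusted p = 0.011), both higher, while 11.3% of all genes were called and 93.5% of those calls were higher, against 46.7% as deposited.

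**Figure D3:**
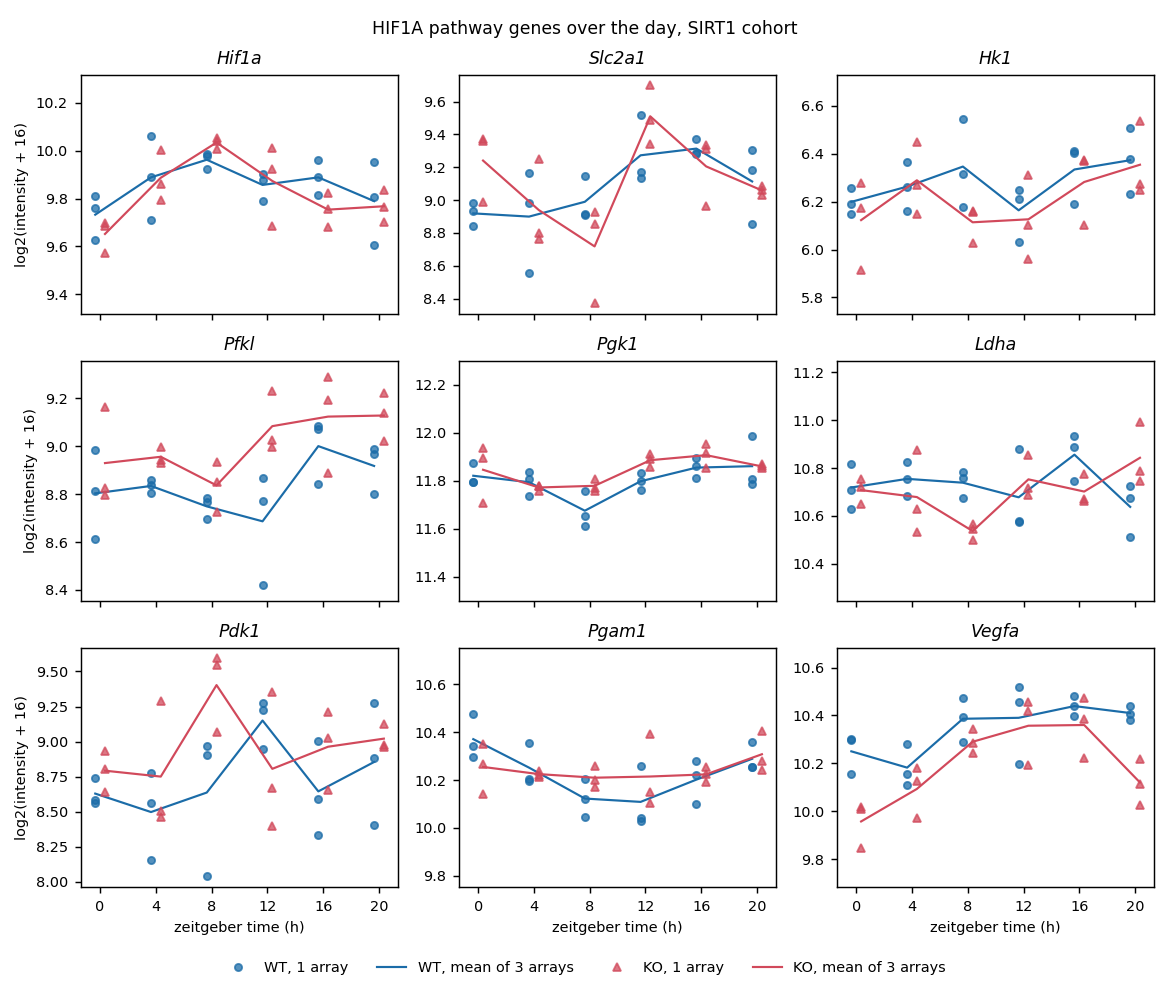
Level (log2 of intensity + 16) of 9 genes against zeitgeber time (h) in the SIRT1 cohort, drawn as for the other cohort with 1 point per array and lines through the means of 3. The KO-labelled mean of Pfkl lies above the WT mean and that of Vegfa below it at 6 of 6 times.

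The other 7 members did not pass in the SIRT1 cohort. Pdk1 ran from 8.04 through 8.76 to 9.28 in WT and from 8.40 through 8.97 to 9.59 in KO-labelled arrays, a difference of 0.22 ± 0.10 (SE, adjusted p = 0.25). At ZT8 its WT arrays read 8.04, 8.97 and 8.90 and its KO-labelled arrays 9.59, 9.07 and 9.55, without overlap, but the adjusted p was 0.43. The differences of Slc2a1, Hk1, Pgk1, Ldha and Pgam1 lay between −0.07 and 0.04, with adjusted p from 0.34 to 0.86. That of Ldha turned to 0.03 with centred array medians and that of Pgam1 to −0.00 after quantile normalization. Ldha differed in opposite directions by time, with −0.20 at ZT8 and 0.20 at ZT20 (adjusted p = 0.56 for each). At ZT8 its KO-labelled arrays of 10.55, 10.57 and 10.50 lay below the WT arrays of 10.67, 10.78 and 10.76. At ZT20 the KO-labelled arrays of 10.99, 10.75 and 10.79 lay above the WT arrays of 10.73, 10.51 and 10.68. Over all members and times, 13 of 54 comparisons showed no overlap, 9 with the KO-labelled arrays above and 4 below, against 13% over all genes. At single times 0 of 9 members passed and 0% of genes did, with 6 of 54 at an unadjusted p under 0.05, from 4 of 9 members, where 38.6% of genes had at least 1. Pfkl and Vegfa, 2 of 9, went 1 way at all 6 times, as 8.38% of genes did. With array weights Vegfa passed at ZT20, at −0.31 (adjusted p = 0.045), where 2.67% of genes passed at some time.

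The difference between the cohorts was tested for each member as the SIRT6 effect minus the SIRT1 effect. Pfkl alone passed, 1 of 9 members against 5.76% of genes: it differed by −0.05 in the SIRT6 cohort and by 0.18 in the SIRT1 cohort, a gap of −0.23 ± 0.06 (SE, limma adjusted p = 0.018). It passed under each other setting and with each of 72 arrays left out singly (adjusted p from 0.0020 to 0.031). With centred array medians Pgk1 also passed (−0.15, adjusted p = 0.0029), where 14.7% of genes did. For Vegfa the gap was 0.07 ± 0.07 (SE, adjusted p = 0.65), so the fall in the SIRT1 cohort is not shown to differ from the SIRT6 cohort. For Hif1a it was −0.01 ± 0.05 (SE, adjusted p = 0.97). Strain differs with the targeted gene, so the cohorts' effects and their backgrounds cannot be told apart.

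Daily rhythms of the members were small beside that of the clock gene Arntl. The fitted amplitude of a 24 h cosine (peak minus trough, log2) had a median over the 9 members of 0.19 (SIRT6 cohort, WT), 0.23 (SIRT6 KO), 0.21 (SIRT1 cohort, WT) and 0.23 (SIRT1 KO). The medians of all genes were 0.23, 0.20, 0.21 and 0.22 in the same order. Arntl had amplitudes from 3.30 to 3.83 in the same sets. Among WT livers of the SIRT6 cohort 0 of 9 members passed, where 10.1% of genes did, and among KO-labelled livers 4 passed, where 10.6% of genes did. At an unadjusted p under 0.05 these counts were 3 (27.1% of genes) and 4 (24.8%). The SIRT1 cohort gave 2 in WT (18.3% of genes) and 2 in KO-labelled livers (23.2%), with 4 (32.4%) and 5 (35.9%) at an unadjusted p under 0.05. With an F test over the 6 times in place of the cosine, 0 passed in livers labelled SIRT6 KO (3.61% of genes) and 0 in WT livers of the SIRT1 cohort (9.51%). Members rhythmic under both labels of a cohort numbered 0, against 4.39% of genes (SIRT6) and 11.6% (SIRT1). Members rhythmic in 3 or more sets also numbered 0, against 7.48% of genes, of which 3.19% passed in all 4. Hk1, Pfkl, Ldha and Pdk1 passed in no set, as did 64.7% of genes. The limma test of the difference in rhythm itself called 0 of 9 members in each cohort, against 0.00751% and 0% of genes. At an unadjusted p under 0.05 it gave Hif1a in the SIRT6 cohort (limma adjusted p = 0.59), as for 8.25% of genes. It gave Vegfa in the SIRT1 cohort (limma adjusted p = 0.67), as for 7.25% of genes. A rhythm called under one label is thus not shown to differ from the other.

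Of the members with a daily cycle, Vegfa peaked around the change from light to dark. Its amplitude was 0.45 ± 0.11 (SE) with a peak at ZT13.5 in livers labelled SIRT6 KO (limma adjusted p = 0.025) and 0.42 ± 0.07 with a peak at ZT12.5 in livers labelled SIRT1 KO (adjusted p = 0.00065). In the WT sets it was 0.13 ± 0.12 (adjusted p = 0.70) and 0.24 ± 0.07 (adjusted p = 0.053). In livers labelled SIRT1 KO the arrays rose from 10.01, 9.85 and 10.02 at ZT0 to 10.42, 10.20 and 10.46 at ZT12, without overlap. In livers labelled SIRT6 KO they rose from 9.63, 9.78 and 9.74 at ZT4 to 10.17, 10.30 and 10.03 at ZT12, also without overlap. At ZT0 the arrays of that set read 10.09, 9.56 and 9.63 and overlapped those at ZT12. Times compared here, and for Slc2a1, Pgk1 and Hif1a below, were picked after the values were seen. How often other genes show such a pair of times was not computed, so these pairs add no support to the calls. The SIRT6 KO call ended without KO ZT0 replicate 2, ZT4 replicate 1 or ZT12 replicate 2 (adjusted p up to 0.061).

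Slc2a1 peaked in the dark phase. It passed in livers labelled SIRT6 KO, with an amplitude of 0.57 ± 0.14 (SE) and a peak at ZT18.6 (limma adjusted p = 0.033), and in WT livers of the SIRT1 cohort, with 0.45 ± 0.11 and a peak at ZT14.9 (adjusted p = 0.018). In the first set the arrays at ZT8 read 8.32, 8.72 and 8.89 and those at ZT16 read 9.33, 9.19 and 9.06, so that every ZT16 array was higher. The other sets had 0.26 ± 0.15 (WT, SIRT6 cohort, adjusted p = 0.45) and 0.38 ± 0.18 (SIRT1 KO, adjusted p = 0.25), with peaks at ZT19.4 and ZT16.4. The SIRT6 KO call was near the threshold: it ended without the filter (adjusted p = 0.0503), with the replicate number as a block (adjusted p = 0.052) and without any 1 of 8 of the 18 arrays, namely the 3 at ZT4, replicates 1 and 2 at ZT8 and ZT16 and replicate 1 at ZT20 (adjusted p up to 0.071). The SIRT1 WT call ended without WT ZT4 replicate 1 (adjusted p = 0.0505).

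Pgk1 was rhythmic in livers labelled SIRT6 KO, where its amplitude of 0.26 ± 0.05 (SE, peak ZT19.1) gave the smallest adjusted p of the members in that set, 0.0055. Its arrays there read 11.53, 11.47 and 11.37 at ZT8 and 11.77, 11.67 and 11.74 at ZT20, without overlap. In the other 3 sets the amplitudes were 0.13 to 0.15, with peaks from ZT16.7 to ZT19.8 and adjusted p from 0.083 to 0.12. The Pgam1 probe set passed in livers labelled SIRT6 KO (0.28 ± 0.07, peak ZT19.8, adjusted p = 0.032) and in WT livers of the SIRT1 cohort (0.26 ± 0.06, peak ZT23.0, adjusted p = 0.022). The first call ended after quantile normalization (adjusted p = 0.067), without the filter (adjusted p = 0.061) and for 8 of 18 arrays left out singly: replicate 2 at ZT0, replicates 1 and 2 at ZT4, 2 and 3 at ZT8, 3 at ZT16, and 2 and 3 at ZT20 (adjusted p up to 0.088). The second ended with centred medians (adjusted p = 0.061) and without WT ZT0 replicate 3, ZT12 replicate 1 or ZT12 replicate 3 (adjusted p up to 0.063). The other Pgam1 probe set passed in 0 of the 4 sets, with adjusted p from 0.21 to 0.92.

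Hif1a had its fitted peak in the light phase in 3 of the 4 sets. It passed in livers labelled SIRT1 KO, with an amplitude of 0.30 ± 0.07 (SE) and a peak at ZT8.7 (limma adjusted p = 0.014). The arrays there read 9.57, 9.69 and 9.70 at ZT0 and 10.04, 10.05 and 10.01 at ZT8, without overlap. In the WT livers of the 2 cohorts the amplitudes were 0.19 ± 0.06 (peak ZT7.8, adjusted p = 0.14) and 0.17 ± 0.08 (peak ZT9.6, adjusted p = 0.26). In livers labelled SIRT6 KO the amplitude was 0.14 ± 0.07, with a fitted peak at ZT14.2 (adjusted p = 0.42). The SIRT1 KO call ended with centred medians (adjusted p = 0.058). The fitted peaks of Slc2a1, Pgk1 and Pgam1 lay from ZT14.9 to ZT23.0 in each of the 4 sets.

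**Figure D4:**
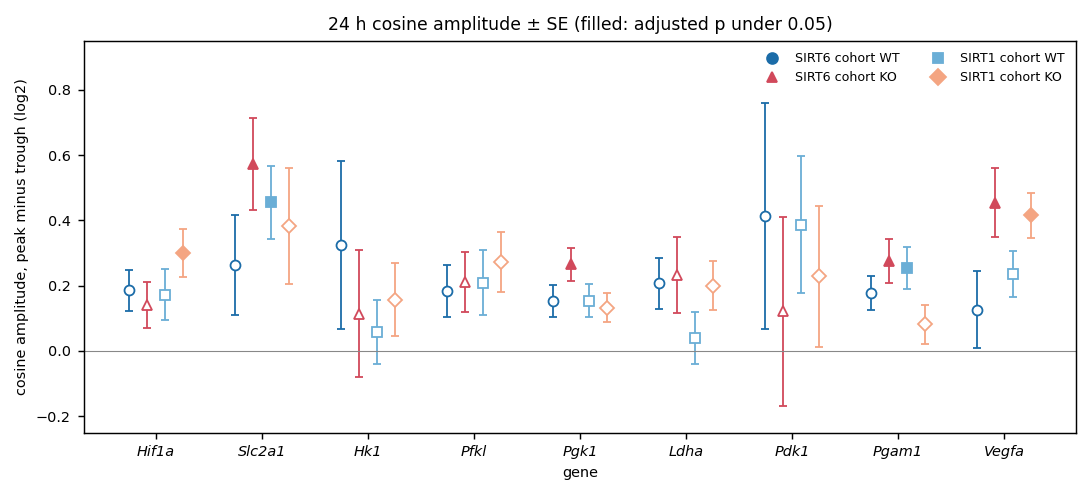
Amplitude of a 24 h cosine (peak minus trough, log2) with its SE for 9 genes in the 4 sets of cohort and genotype, from 18 arrays per set; filled symbols passed an adjusted p of 0.05. The 8 filled symbols belong to Hif1a, Slc2a1, Pgk1, Pgam1 and Vegfa, at amplitudes from 0.26 to 0.57.

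Over the 24 group means, centred within each cohort, the genes most like Hif1a were Ammecr1l (Pearson r = 0.88), Pola1, the catalytic subunit of DNA polymerase alpha (r = 0.87), and Rbbp6 (r = 0.86). These are descriptions over groups that share arrays' processing and time of day. The members were less like it, from −0.44 for Ldha and Pgam1 to 0.46 for Vegfa.

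The level of Hif1a was then set against that of its targets from array to array within groups. Of 16 correlations between Hif1a and another member (8 in each cohort, each over 36 arrays with group means removed, quantile-normalized), 0 passed an adjusted p of 0.05 by permutation within groups. The highest in size was −0.30, with Pgam1 in the SIRT1 cohort (Spearman rho = −0.24, permutation p = 0.19, and p = 0.24 for rho). The count was again 0 with the values as deposited, with centred medians and without the 2 arrays farthest in Hif1a. Weak relations with Hif1a were usual among all genes, with a median absolute r of 0.155 (SIRT6) and 0.164 (SIRT1). The top decile of genes began at 0.385 and 0.388 in the same order, and no member lay within it. The count of 0 is therefore not shown to be particular to the members.

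Other members did vary together from array to array, most clearly in the SIRT6 cohort, and not all in one direction. Over all 72 pairs, examined after the values were seen, 10 of 36 passed in the SIRT6 cohort and 3 of 36 in the SIRT1 cohort. How often pairs of other genes pass was not computed, so these counts are not shown to be particular to the members. In the SIRT6 cohort 1 component took up 52.6% of the within-group variance over the genes tested, against 17.99% in the SIRT1 cohort. Hk1 and Pdk1 were opposed in the first (r = −0.90, rho = −0.91, permutation p = 1e-05 for each, adjusted p = 0.00036 and 0.00072, the first p being the smallest that 100000 permutations can give). The value was −0.88 without the 2 arrays farthest in Hk1, −0.91 in WT and −0.90 in KO-labelled arrays. In the SIRT1 cohort the same pair ran together (r = 0.56, rho = 0.56, permutation p = 0.0051 for each, adjusted p = 0.029 and 0.028), with 0.58 without the 2 farthest arrays. Slc2a1 and Hk1 rose together in the SIRT6 cohort (r = 0.79, rho = 0.79, permutation p = 8e-05 and 5e-05, adjusted p = 0.0012 and 0.00086), and their correlation was −0.39 in the SIRT1 cohort (rho = −0.36, permutation p = 0.043 and 0.072, adjusted p = 0.22 and 0.30).

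Slc2a1 and Pdk1 were opposed in both cohorts. The correlation was −0.85 (rho = −0.84, permutation p = 1e-05 and 2e-05, adjusted p = 0.00036 and 0.00072) in the SIRT6 cohort and −0.61 (rho = −0.61, permutation p = 0.0030 and 0.0034, adjusted p = 0.020 and 0.022) in the SIRT1 cohort. Without the 2 farthest arrays these were −0.81 and −0.61. The remaining pairs that passed in the SIRT6 cohort joined Slc2a1, Hk1 and Pdk1 with Pgam1 and Vegfa, and Pgam1 with Vegfa, with r from −0.75 to 0.69. In the SIRT1 cohort Slc2a1 and Pfkl rose together (r = 0.61, rho = 0.61, permutation p = 0.00028 and 0.00052, adjusted p = 0.0034 and 0.0053). That the relation of a pair differs between the cohorts was not tested.

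**Figure D5:**
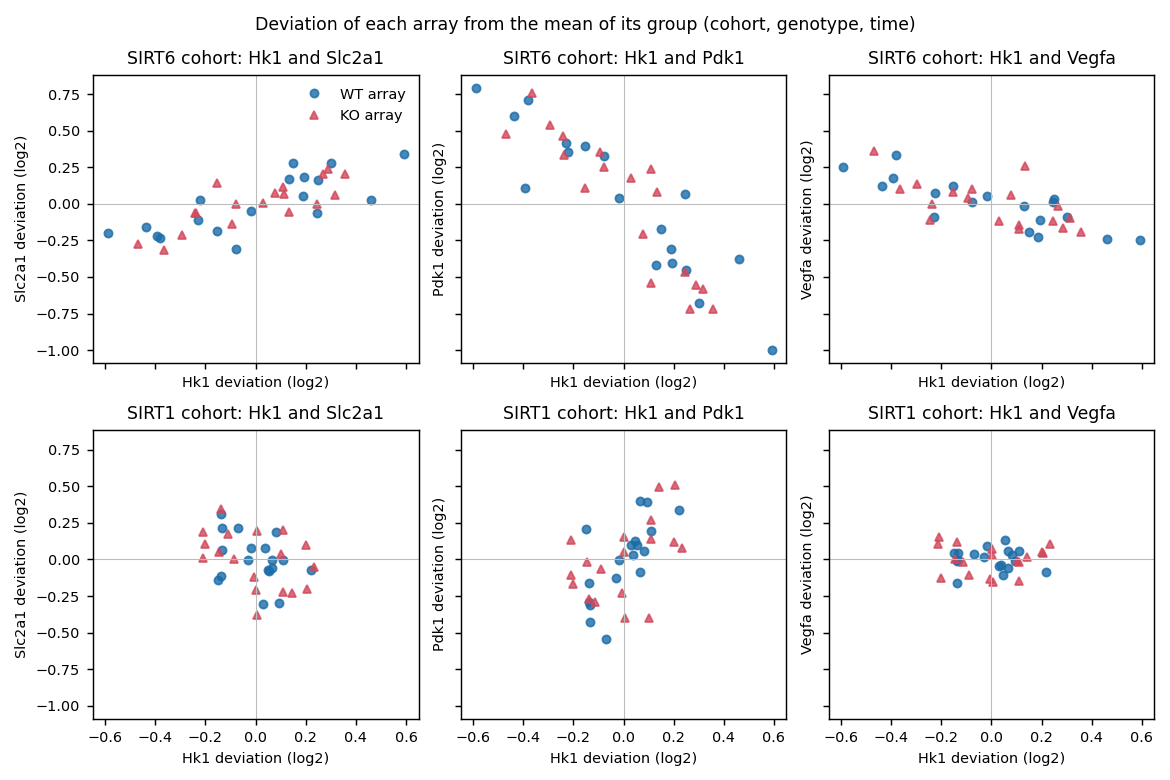
Deviation of each array from the mean of its group (log2) for Hk1 (x axis) against Slc2a1, Pdk1 and Vegfa (y axes), in the SIRT6 cohort (top) and the SIRT1 cohort (bottom), 36 arrays each, WT as circles and KO-labelled as triangles. In the SIRT6 cohort Pdk1 falls from array to array as Hk1 rises (r = −0.90), while in the SIRT1 cohort both rise together (r = 0.56).

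The same arrays differed in markers of liver macrophages. With the mean of the 12 Kupffer cell markers the SIRT6 cohort gave r = 0.86 for Hk1, 0.72 for Slc2a1, −0.81 for Pdk1, −0.66 for Vegfa and −0.58 for Pgam1 (rho 0.86, 0.75, −0.85, −0.71 and −0.59, permutation adjusted p 0.0035 or lower for each). Without the 2 farthest arrays the values were 0.85, 0.70, −0.77, −0.59 and −0.53. With the mean of 19 acute phase genes the same 5 members passed, from −0.79 for Pdk1 to 0.79 for Hk1. In all, 10 of 18 relations with these lists passed in the SIRT6 cohort and 1 of 18 in the SIRT1 cohort, that of Vegfa with the Kupffer cell markers (r = −0.53, rho = −0.54, permutation p = 0.013 and 0.0061, adjusted p = 0.041 and 0.020). That r was −0.41 with the values as deposited and −0.21 with centred medians, so its size depends on the scaling. Such relations were common among all genes of the SIRT6 cohort: the median absolute r with the Kupffer cell mean was 0.42 there and 0.19 in the SIRT1 cohort. For the acute phase mean these medians were 0.43 and 0.15. The top decile of genes in the SIRT6 cohort began at 0.72 (Kupffer) and 0.73 (acute phase), and only Hk1 and Pdk1 lay within it. How many of all genes pass was not computed, so these counts are not shown to be particular to the members.

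The Kupffer cell markers were also set against the labels. Of 12, all had the higher mean in livers labelled SIRT6 KO (median 0.19, 0 passed), with summed intensities of 2419 to 15517 in WT and 3149 to 18789 in KO-labelled arrays. In livers labelled SIRT1 KO 1 of 12 had the higher mean (median −0.10, 0 passed), with 2566 to 6770 in WT and 1630 to 6294. Over all genes 51.7% (SIRT6) and 49.1% (SIRT1) had the higher mean. Under the SIRT6 KO label so did 10 of 10 stellate cell, 4 of 5 lymphocyte, 4 of 10 endothelial, 2 of 4 bile duct and 2 of 12 hepatocyte markers. Under the SIRT1 KO label these counts were 8, 3, 2, 3 and 4, and 0 passed in either cohort. The part of any of these markers in the differences of Pfkl and Vegfa was not tested.

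The machinery that controls HIF1A did not differ between the labels at the threshold. Of 12 genes listed, 11 were tested and 0 passed in either cohort, where 6.61% and 2.27% of all genes did (SIRT6 and SIRT1 cohorts). The medians were 0.04 and 0.01 in the same order, and Hif3a was below the filter. In the SIRT6 cohort the oxygen-sensing hydroxylase Egln1 was nearest, at −0.13 ± 0.04 (SE, adjusted p = 0.061), with the dimer partner Arnt at 0.09 ± 0.04 (adjusted p = 0.15) and the asparagine hydroxylase Hif1an at 0.13 ± 0.05 (adjusted p = 0.12). The other hydroxylases Egln2 and Egln3 differed by −0.05 and −0.15 for SIRT6 and by 0.06 and −0.10 for SIRT1. The ligase gene Vhl differed by −0.06 and 0.15, and Epas1, which encodes HIF2A, by −0.03 and −0.00. The coactivators Ep300 and Crebbp differed by 0.04 and 0.05 (SIRT6) and by 0.01 and 0.04 (SIRT1), Arnt2 by 0.06 and −0.15, and the competitor Cited2 by 0.18 and −0.19.

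A rhythm passed in 2 of these 11 genes in WT and 1 in KO-labelled livers of the SIRT6 cohort, and in 3 and 4 of 11 in the SIRT1 cohort, where the shares over all genes were 10.1%, 10.6%, 18.3% and 23.2%. Vhl was rhythmic in 3 sets, with amplitudes of 0.38 in livers labelled SIRT6 KO (peak ZT17.8, adjusted p = 0.029), 0.51 in WT livers of the SIRT1 cohort (ZT16.5, 0.011) and 0.36 in livers labelled SIRT1 KO (ZT18.2, 0.029). Epas1 cycled in both sets of the SIRT1 cohort, with 0.50 and 0.58 and peaks at ZT11.1 and ZT10.8 (adjusted p = 0.0019 and 5.3e-05). Cited2 cycled in WT of both cohorts and in SIRT1 KO livers, with amplitudes from 0.57 to 1.05 and peaks from ZT0.6 to ZT1.5. Egln2 cycled in WT of the SIRT6 cohort, with 0.21 and a peak at ZT6.3 (adjusted p = 0.041), and Crebbp in livers labelled SIRT1 KO, with 0.30 and a peak at ZT6.5 (adjusted p = 0.012).

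Beyond the members, 20 other HIF target genes and a list of 18 other glycolysis genes were tested. That list also holds genes of the pyruvate dehydrogenase step, such as Pdha1 and Pdk4. Of the HIF targets 0 passed in the SIRT6 cohort (6 with the higher mean, median −0.04) and 1 in the SIRT1 cohort (10 higher, median 0.01), the growth regulator Ddit4, which was higher by 0.47 ± 0.12 (SE, adjusted p = 0.038). Of the 18 genes of the glycolysis list 3 rose in the SIRT6 cohort and 0 fell (median 0.01). Pfkm, the muscle form of phosphofructokinase, rose by 0.27 ± 0.07 (adjusted p = 0.019) and Ldhb by 0.18 ± 0.06 (adjusted p = 0.042). Pdha1, a subunit of pyruvate dehydrogenase, rose by 0.26 ± 0.06 (adjusted p = 0.0051). In the SIRT1 cohort 1 rose and 0 fell (median 0.01), again Pfkm, by 0.23 ± 0.06 (adjusted p = 0.029). Over all genes 6.61% passed in the SIRT6 cohort, 3.39% higher and 3.22% lower. In the SIRT1 cohort 2.27% of all genes passed, 1.06% higher and 1.21% lower. These lists were chosen with earlier results known, and the counts describe them only.

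Daily rhythms were also read for these lists. Among the other HIF targets a rhythm passed in 6 of 20 in WT and 6 in KO-labelled livers of the SIRT6 cohort, and in 14 and 11 of 20 in the SIRT1 cohort. The shares over all genes in the same sets were 10.1%, 10.6%, 18.3% and 23.2%. Ak4, an adenylate kinase, passed in all 4 sets, with amplitudes from 0.68 to 1.01 and peaks from ZT11.1 to ZT14.0. The mitophagy gene Bnip3 had 0.99 and 0.87 in the SIRT1 cohort with peaks at ZT12.9 and ZT12.3, and Ndrg1 passed in all 4 sets with 0.65 to 1.33 and peaks from ZT23.9 to ZT2.5. Pfkfb3, an activator of phosphofructokinase through fructose 2,6-bisphosphate, had 1.24 in WT livers of the SIRT6 cohort (peak ZT11.2) and 1.57 and 1.54 in the SIRT1 cohort. The transferrin receptor Tfrc had 1.96 in livers labelled SIRT6 KO (peak ZT16.5, adjusted p = 0.00012) and 0.94 in livers labelled SIRT1 KO (peak ZT14.7, adjusted p = 0.0093). Its WT amplitudes were 1.06 (SIRT6 cohort, peak ZT17.1, adjusted p = 0.10) and 0.47 (SIRT1 cohort, peak ZT16.7, adjusted p = 0.21). A difference in rhythm between the labels passed in neither cohort (limma adjusted p = 0.68 and 0.74). In the glycolysis list Pdk4, another dehydrogenase kinase, passed in all 4 sets with amplitudes from 1.82 to 2.12 and peaks from ZT20.4 to ZT23.1.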

How the data were processed

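Total liver RNA was read on 72 single-colour Affymetrix arrays. Per the submitters' processing notes, Affymetrix Expression Console 1.1.1 and PLIER 2.0 were used, with settings and build not given in the sources used here. A deposited table holds linear intensity per probe set, as its range shows. Each column was matched to 1 sample by name.

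Values were taken as log2(intensity + 16). The highest-mean probe set of 1 symbol stood for a gene, and the lowest 40% of genes by mean (under 6.00) were left out. limma 3.58.1 in R 4.3.3, with empirical Bayes moderation and an intensity trend, fitted 12 group means per cohort for KO minus WT (averaged, and per time with 1 correction over genes and times), a 24 h cosine per set of 18 arrays, genotype by cosine terms for the difference in rhythm, and all 72 arrays for the difference between effects. P-values were Benjamini-Hochberg adjusted over all 13308 genes, with a threshold of 0.05. Steps were tested on simulated data. Correlations used quantile-normalized values and 100000 two-sided permutations within groups in Python 3.11.15 with NumPy 2.4.6. Removing group means leaves the 3 values of a group dependent, which permuting within groups keeps.

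The members and lists were chosen with earlier results of these data known. Genes named are the members, Sirt6, Sirt1, the regulators of HIF1A, clock genes as a time check, up to 4 genes of smallest p past the threshold per test in 2 lists (other HIF targets, other glycolysis genes), and the 3 genes most like Hif1a. Alternatives were other scalings, pseudocounts, filters, weights, the replicate number as a block, and each array left out. The number of arrays limits the precision.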

Additional observations from a re-analysis of the deposited data

Results flagged for a closer look

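The KO minus WT difference of Pfkl, the liver phosphofructokinase, differed between the cohorts by a test of the difference itself. It was −0.05 for SIRT6 and 0.18 for SIRT1, so that the first minus the second was −0.23 ± 0.06 (SE, limma adjusted p = 0.018), from 72 arrays. In the SIRT6 cohort 13 of 18 KO-labelled arrays lay below the WT mean of their time, and in the SIRT1 cohort 15 of 18 lay above it.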

How the results depend on the processing

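In the SIRT6 cohort the count of 0 members past the threshold in the daily average and the count of 0 with a difference in rhythm held under each alternative run. Of 436 single differences and amplitudes recomputed under settings other than leaving out an array, 411 kept their direction and their side of the threshold. Main counts that moved did so as follows. With array weights 1 member passed at single times in each cohort (2532 genes and 355 genes of 13308), 3 were rhythmic in WT of the SIRT6 cohort (19.3% of genes) and 4 in WT of the SIRT1 cohort (22.5%); the weights did not fully converge in 2 fits. With an F test over the 6 times 0 were rhythmic in livers labelled SIRT6 KO and 0 in WT of the SIRT1 cohort. Without the filter 2 were rhythmic in livers labelled SIRT6 KO (5.1% of genes) and 1 differed in the daily average of the SIRT1 cohort (0.942%), and quantile normalization also gave 1 there (2.9% of genes) and 4 rhythmic members in livers labelled SIRT1 KO (24.8%). Centred medians gave 1 rhythmic member there (19.8%), 2 members that differ between the cohorts and 2 with the lower mean in the SIRT1 cohort. Leaving out 1 array gave 0 to 1 rhythmic members in WT and 1 to 4 in KO-labelled livers of the SIRT6 cohort (WT ZT8 replicate 2; KO ZT0 replicate 2, ZT4 replicates 1 and 2 and ZT8 replicate 2), 1 to 3 in WT of the SIRT1 cohort (WT ZT0 replicate 3, ZT4 replicate 1 and ZT12 replicate 3) and 1 to 2 differences in the SIRT1 cohort.

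Signs turned for 6 differences, none of them past the threshold: in the SIRT6 cohort Ldha (0.0072) and Pdk1 (0.017) with array weights and Pgam1 (0.16) with its other probe set; in the SIRT1 cohort Hif1a (0.036) and Ldha (0.034) with centred medians and Pgam1 (−0.00156) after quantile normalization. Without 1 array, Ldha ranged from −0.034 to 0.0053 and Pdk1 from −0.090 to 0.043 in the SIRT6 cohort, and Slc2a1 from −0.0014 to 0.056 in the SIRT1 cohort. The cause of these moves was not tested.

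Replicate numbers were not taken as pairs, since the labels give them no shared source and not every correlation of same-numbered arrays passed 0.1. It did in 11 of 18 pairs of the SIRT6 cohort (median 0.25, from −0.36 to 0.74), where some same-numbered arrays deviated together, and in 6 of 18 of the SIRT1 cohort (median 0.028). With the replicate block 3 members were rhythmic in livers labelled SIRT6 KO in place of 4, Slc2a1 being lost (adjusted p = 0.052), and 0 and 2 members differed in the daily average of the SIRT6 and SIRT1 cohorts. That block fits an effect per replicate number shared by all times, so it does not model a WT and KO pair within a time. Permutations within groups did not keep such pairs either. The filter of the lowest 60% left out Hk1. Dim genes, Hk1 first, are limited by signal over background.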

Other observations

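The probe set shared by Aldoa, the glycolytic aldolase, and Aldoart1 ran from 7.14 to 7.81 in WT and from 7.06 to 7.79 in KO-labelled arrays of the SIRT6 cohort, with a difference of −0.16 ± 0.07 (SE, limma adjusted p = 0.21). In the SIRT1 cohort the difference was 0.01 ± 0.05 (adjusted p = 0.94). In livers labelled SIRT1 KO it cycled with an amplitude of 0.37 ± 0.09 and a peak at ZT12.2 (adjusted p = 0.020), and in WT of that cohort the fitted amplitude was 0.28 ± 0.12, with the same fitted time (adjusted p = 0.24). Which of the 2 genes gave the signal cannot be told apart.

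Pklr, the liver pyruvate kinase that acts below Pgam1 in glycolysis, was named after its values were seen. It had the higher mean under both knockout labels, by 0.31 ± 0.11 (SE, adjusted p = 0.087) in the SIRT6 cohort and 0.40 ± 0.14 (SE, adjusted p = 0.12) in the SIRT1 cohort, and neither passed.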
